A study of Arabidopsis thaliana with 36 samples.

Results

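Seeds of *h3.3ko*, an Arabidopsis line without functional genes for the histone variant H3.3, were compared with seeds of the Columbia wild type (Col) after 24 h in germination conditions (G24h). The comparison took 3 *h3.3ko* and 3 Col libraries, which are 6 of the 36 libraries of a time course from dry seeds to germination. A gene was tested when it had a TPM of at least 1 in 3 or more of these 6 libraries, which kept 17874 of 27655 genes. TPM is a read number scaled to gene length and to the total of the library. The *h3.3ko* line carries edited alleles of HTR4 and HTR5 and a T-DNA insertion in HTR8. Its seeds came from mother plants that were heterozygous for a rescuing *pHTR5::HTR5* transgene with an mCherry seed marker, and seeds without mCherry were picked, so the maternal seed coat had carried the transgene. Col seeds had intact H3.3 genes. Seeds of both genotypes had been after-ripened and stratified before they were moved to long days, and whole seeds were extracted, with embryo, endosperm and seed coat together. According to the study, germination was complete in Col and incomplete in *h3.3ko* at this time, so genotype and germination state cannot be told apart in this comparison.

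A dry seed carries stored messenger RNA from its maturation, among it transcripts for storage proteins, for oil body coats and for late embryogenesis abundant (LEA) proteins, which protect cells while they dry. Abscisic acid and the B3 transcription factors of the LEC2, ABI3 and FUS3 family drive that maturation program. Once a stratified seed meets light and warmth, these transcripts are lost, stored oil is turned into sugar, gibberellin synthesis increases, cell walls loosen until the radicle emerges, and chloroplasts and the cell cycle start up. H3.3 is the H3 variant that is placed in chromatin outside DNA replication, whereas H3.1 is placed mainly during replication.

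The 6 libraries had similar depths. Reads recovered from the TPM values came to 18.565, 18.581 and 18.975 M in *h3.3ko* and to 18.671, 18.732 and 19.39 M in Col. A floor of 3 reads, used below where a gene had no read, stood at 0.304 to 0.364 TPM for a gene of 1 kb, and it covers counting error only. The H3.3 genes followed the genotype labels in every library. Their summed level was 213, 178 and 198 TPM in *h3.3ko* (196 ± 17.8 TPM, SD, n = 3), against 1334, 1305 and 1309.9 TPM in Col (1316 ± 15.3 TPM, SD, n = 3). AT5G10980 (TAIR10.1 chromosome 5, 3472405 to 3473570, 3 exons) was at 14.9, 9.93 and 9.38 TPM in *h3.3ko*, against 499, 490.0 and 503 TPM in Col. The neighbouring pair AT4G40030 and AT4G40040 on chromosome 4 had log2 fold changes of -2.74 and -1.65, so transcripts of both mutated genes were still counted. Reads of near-identical gene copies can be split between copies by the counting, and single H3 genes are uncertain for that reason.

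One *h3.3ko* library stood slightly apart from the other 2. Among 25 genes with a Col mean of at least 20 TPM and no read in *h3.3ko* replicates 2 and 3, 20 had at least 3 reads in replicate 1. The same choice with replicate 2 left out gave 2 genes, and with replicate 3 left out also 2. None of them had at least 3 reads in the library left out. Over 80 genes with a Col mean of at least 50 TPM and under 1% of it in replicates 2 and 3, the median level was 1.26% of Col in replicate 1, against 0.266% in replicate 2 and 0.232% in replicate 3. These 80 were picked by low values in replicates 2 and 3, so part of this contrast was fixed by the choice. For several genes that were lowest in *h3.3ko*, fold changes are given below with and without replicate 1. The part of a few Col-like seeds or reads in these values was not tested.

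At G24h, 7392 of 17874 genes (41.4%) were called, which here means an adjusted p under 0.05 in limma on log2(TPM + 1) and a fold change above 2. Of these, 1813 were higher in *h3.3ko* (10.1%) and 5579 lower (31.2%). The *h3.3ko* libraries lay wholly above the Col libraries for 4747 genes (26.6%) and wholly below them for 10637 genes (59.5%). Large changes were found in both directions. The log2 fold change passed 5 in 80 called genes and was below -5 in 116, and it passed 7 in 24 and was below -7 in 12. A total of 1544 genes had at least 1 TPM in every Col library and in no *h3.3ko* library, and 494 had at least 1 TPM in every *h3.3ko* library and in no Col library.

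The split between higher and lower genes depended on scaling. Over all tested genes, the log2 fold change had a median of -0.45 in TPM, -0.04 after median-of-ratios scaling and 0.04 after quantile normalization. The 10 most abundant genes of a library held 20.9% of all TPM in *h3.3ko*, against 4.95% in Col. The share of called genes that were higher in *h3.3ko* was 24.5% in TPM, 42.9% after median-of-ratios scaling and 49.2% after quantile normalization. All 1813 genes called higher kept their call in every one of 4 other scalings in which they were tested (median-of-ratios scaling, quantile normalization, voom on recovered reads, and TPM recomputed without the storage genes), and 3314 of the 5579 called lower did so. None of the called genes was called in the opposite direction under any of these 4 scalings. All 4 raised the median log2 fold change of all genes, which was -0.28 in voom and -0.20 without the storage genes. They thus tended to keep higher calls and to remove lower ones, so the 2 counts are not a like test of both directions. The 1544 and 494 genes above passed the filter through one genotype alone, so their direction was fixed by it. Counts for the gene lists below include such genes where a list has them. They are to be read beside 10.1% higher and 31.2% lower over all genes in TPM. Of the 15836 other genes, 1421 were called higher and 4177 lower. In these whole-seed samples, fewer cells of a type and less RNA per cell cannot be told apart.

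**Figure D1:**
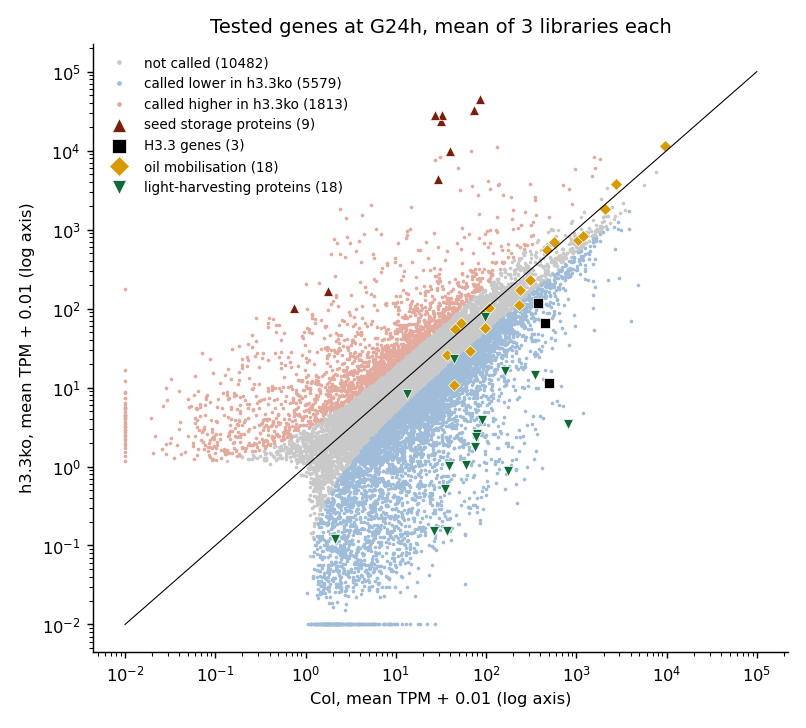
Mean TPM over 3 *h3.3ko* libraries (y axis) against mean TPM over 3 Col libraries (x axis) at G24h, both on log axes after adding 0.01, for the 17874 tested genes. Storage protein genes lie far above the line of equal levels, light-harvesting and H3.3 genes lie below it, and oil mobilisation genes run along it.

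Seed storage protein transcripts were far more abundant in *h3.3ko* than in Col at G24h. The 9 storage genes, which code for 2S albumins (SESA) and 12S cruciferins, held 18.4, 17.5 and 15.6% of all TPM in *h3.3ko* (17.2 ± 1.42%, SD, n = 3), against 0.0231, 0.0279 and 0.0457% in Col (0.0323 ± 0.0119%, SD, n = 3), a 533-fold difference. The 2-sided exact permutation test gave p 0.1, the smallest that 3 libraries against 3 allow. Within *h3.3ko* the share was also above that at G12h, 12 h into germination, when it was 12.5, 11.6 and 10.3%, with no overlap between the times (exact permutation p 0.1). In Col it was 0.044, 0.0251 and 0.028% at G12h and overlapped between the times (p 0.9). All 9 genes were called higher, with a median log2 fold change of 8.92 beside -0.45 for all genes. CRU3 (chromosome 4, 14087556 to 14089796, 5 exons), a cruciferin gene, had 31152, 29951 and 23796 TPM in *h3.3ko*, against 22.3, 23.3 and 36.9 TPM in Col, which is a change of 9.98 on the log2 scale (SE 0.17, limma adjusted p 3.20e-12). This was the highest fold change among the genes named by the rule for large changes. CRA1, another cruciferin gene and the most abundant transcript of the list, had 49479, 46793 and 38177 TPM in *h3.3ko*, against 85.3, 75.2 and 99.4 TPM in Col.

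The albumin genes SESA1 to SESA4 lie next to each other on chromosome 4 and are near-copies, and SESA5 lies on chromosome 5. SESA1 was at 24595, 24344 and 22631 TPM in *h3.3ko*, against 10.9, 31.1 and 53.1 TPM in Col. SESA5 was at 34114, 32326 and 30592 TPM in *h3.3ko*, against 39.9, 59.9 and 118 TPM in Col. The *h3.3ko* libraries differed little among themselves in these genes, and the Col libraries differed several-fold in the same order for both genes. The lowest members of the list were CRU2 with 175, 183 and 149 TPM in *h3.3ko* and 1.45, 1.82 and 2.07 TPM in Col, and AT1G03890 with 109, 102 and 98.4 TPM in *h3.3ko* and 0.263, 0.799 and 1.17 TPM in Col. Both had a log2 fold change of 5.94.

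Promoters of these genes are shown because the strongest increases came with seed-type motifs in the promoter. RefSeq promoters (TAIR10.1, 250 bases before to 50 after the start) were searched on both strands for the RY core CATGCA, the element that B3 maturation factors bind, for the G-box CACGTG, for the abscisic acid response element ACGTGTC (ABRE), which can overlap a G-box, and for 5 other motifs. The 110 bases before the start of the 5 albumin genes are given 5′ to 3′ on the gene's strand, with RY cores, G-boxes and ABREs of either strand in capitals. They stand at chr4:13607219-13607328 for SESA1, chr4:13609231-13609340 for SESA2, chr4:13611686-13611795 for SESA3, chr4:13613486-13613595 for SESA4 (all plus strand) and chr5:22239188-22239297 for SESA5 (minus strand).
SESA1: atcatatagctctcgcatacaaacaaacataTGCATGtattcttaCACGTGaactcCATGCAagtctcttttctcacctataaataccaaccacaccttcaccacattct
SESA2: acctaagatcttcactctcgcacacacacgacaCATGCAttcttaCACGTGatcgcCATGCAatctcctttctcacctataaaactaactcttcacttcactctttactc
SESA3: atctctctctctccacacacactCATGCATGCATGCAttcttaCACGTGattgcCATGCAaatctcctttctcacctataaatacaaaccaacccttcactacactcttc
SESA4: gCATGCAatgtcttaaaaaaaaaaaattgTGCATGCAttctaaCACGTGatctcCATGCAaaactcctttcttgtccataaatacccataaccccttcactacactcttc
SESA5: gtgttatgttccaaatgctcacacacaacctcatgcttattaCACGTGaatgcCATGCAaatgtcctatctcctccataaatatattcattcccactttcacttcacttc
In all 5 promoters a G-box began 11 bases upstream of an RY core. It began 65 bases before the start in SESA1 and SESA2, 67 bases in SESA3 and SESA4, and 68 bases in SESA5. Of the 9 storage promoters, 8 held an RY core and 5 a G-box, and none held an ABRE. CRU2, one of the least abundant members, was the one without an RY core. A match describes the letters of the window and does not show binding.

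Oil body genes were higher in *h3.3ko* as well. Oleosins and caleosins coat oil bodies, and 9 of the 10 tested genes of this list were called higher in *h3.3ko* and none lower, with a median log2 fold change of 4.96. Their summed share was 1.33% of all TPM in *h3.3ko* and 0.0404% in Col, a 33.0-fold difference. At G12h the share was 1.2, 1.15 and 1.03% in *h3.3ko* and 0.0187, 0.0146 and 0.0176% in Col. OLEO1, the main seed oleosin gene, had 6504, 5594 and 6148 TPM in *h3.3ko*, against 47.2, 44.1 and 56.4 TPM in Col. OLEO4 had 743, 618 and 668 TPM in *h3.3ko*, against 1.28, 1.98 and 3.45 TPM in Col, a log2 fold change of 7.76. The exception was OLEO3, with 138, 129 and 140.1 TPM in *h3.3ko* and 98.8, 96.9 and 92.3 TPM in Col, which did not pass the fold threshold. All 10 oil body promoters held an RY core.

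All 21 tested LEA genes were called higher in *h3.3ko* at G24h, with log2 fold changes from 1.44 to 8.55 and a median of 2.61. Their summed share was 6.11 ± 0.0828% of all TPM in *h3.3ko* and 0.884 ± 0.0534% in Col (SD, n = 3 each). The dehydrin gene AT5G66400 had 10375, 9881 and 9613 TPM in *h3.3ko*, against 44.7, 68.0 and 93.3 TPM in Col. ATECP31 had 1455, 1325 and 1396 TPM in *h3.3ko*, against 1.96, 2.93 and 3.41 TPM in Col. GEA6, the Em6 protein gene, had 3692, 3294 and 3782 TPM in *h3.3ko*, against 58.0, 66.7 and 87.4 TPM in Col. LEA18 was unlike these, because its transcript was still abundant in Col, with 8345, 7738 and 8631 TPM in *h3.3ko* and 1562, 1550.0 and 1603 TPM in Col. LEA promoters differed from storage promoters in their motifs, since 18 of 21 held an ABRE and 16 a G-box, while 6 held an RY core. OLEO1, which carries each of these motifs, and GEA6 are shown as examples, at chr4:12900320-12900429 (plus strand) and chr2:16780369-16780478 (minus strand), with the 3 motifs in capitals and one further match (TAACAAA) in OLEO1 also in capitals.
OLEO1: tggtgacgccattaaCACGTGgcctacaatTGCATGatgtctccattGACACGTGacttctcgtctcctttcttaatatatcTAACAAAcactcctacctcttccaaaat
GEA6: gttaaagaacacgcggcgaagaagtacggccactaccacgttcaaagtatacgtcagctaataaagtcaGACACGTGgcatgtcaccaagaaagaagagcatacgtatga

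Other transcripts of the dry seed were higher in *h3.3ko* as well. HIS1-3, a drought-inducible linker histone gene (chromosome 2, 7845923 to 7847031), had 1866, 1794 and 1792 TPM in *h3.3ko*, against 1.62, 1.75 and 3.73 TPM in Col, which is a change of 9.13 on the log2 scale (SE 0.18, limma adjusted p 6.14e-12). AT1G08170, annotated as a histone superfamily protein, had 74.4, 75 and 67.3 TPM in *h3.3ko*, against 1.41, 0.906 and 2.14 TPM in Col. TIP3;1 and BETA-TIP, the aquaporins of protein storage vacuoles, had log2 fold changes of 8.26 and 7.24. PAP85, a vicilin-type storage protein gene outside the list, had 8321, 8079 and 6721 TPM in *h3.3ko*, against 15.4, 23.4 and 42.2 TPM in Col. GASA3, of a gibberellin-regulated peptide family, had 2087, 1862 and 2127 TPM in *h3.3ko*, against 5.41, 4.46 and 6.03 TPM in Col. PER1, a seed peroxiredoxin that removes peroxides, had 3265, 2982 and 3166 TPM in *h3.3ko*, against 46.5, 52.0 and 56.5 TPM in Col. Of the 14 tested small heat shock and seed heat shock genes, 12 were called higher and none lower, with a median log2 fold change of 2.73. Through *h3.3ko* alone 1 passed the filter, and 11 of the 13 others were called higher. HSP17.4, a small chaperone of late seed development, had 517, 676 and 848 TPM in *h3.3ko*, against 7.84, 13.9 and 10.4 TPM in Col. HSFA9, the seed heat shock factor, had 30.5, 18.7 and 28.9 TPM in *h3.3ko*, against 8.13, 8.0 and 7.51 TPM in Col. In the 4 tested genes for raffinose family sugars, which also protect dry seeds, 3 were called higher and none lower, beside 10.1% and 31.2% of all genes. Through *h3.3ko* alone 1 passed the filter, and 2 of the 3 others were called higher.

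**Figure D2:**
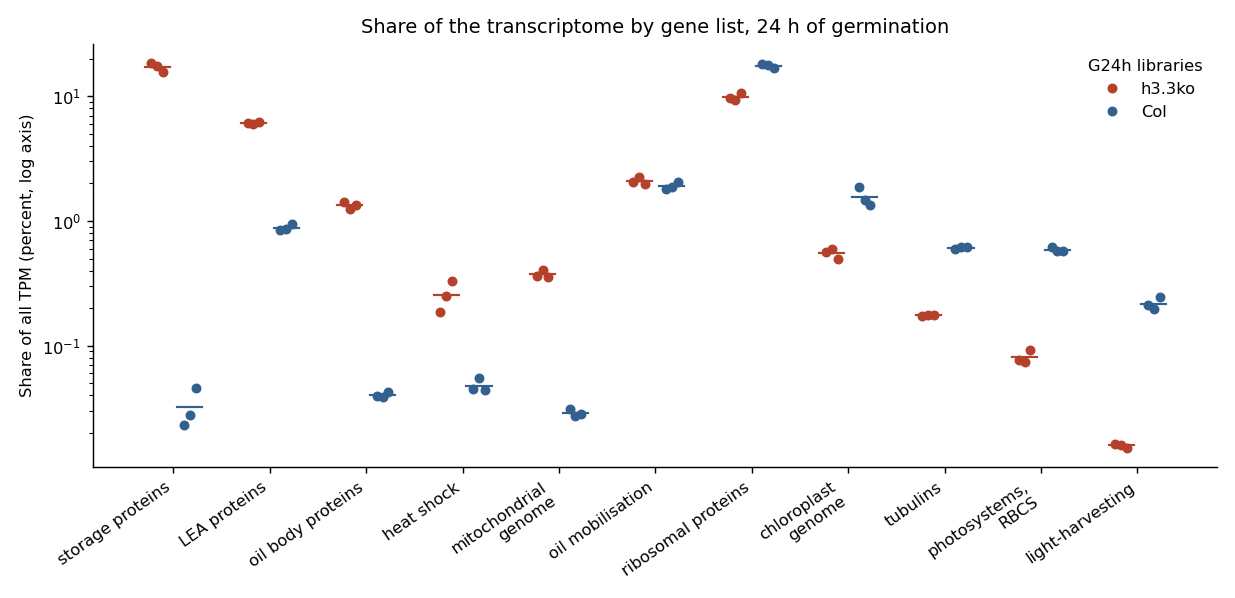
Share of all TPM (y axis, percent, log axis) held by 11 groups of genes (x axis) in each of the 3 *h3.3ko* and 3 Col libraries at G24h, with points for libraries and lines for means. The genotypes lie apart in every group except oil mobilisation, where the libraries overlap.

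Of 13 listed transcription factors of maturation, 9 were tested. Of these 4 were called higher and 1 lower, beside 10.1% and 31.2% of all genes. Their median log2 fold change was 0.62, beside -0.45 for all genes. Of the 4 called higher, 2 passed the filter through *h3.3ko* alone. Among the 7 genes that passed in both genotypes, 2 were called higher and 1 lower. EEL, a bZIP factor of late maturation, had 119, 119 and 115 TPM in *h3.3ko*, against 7.84, 6.96 and 8.44 TPM in Col, a log2 fold change of 3.77. ABI5, the bZIP factor through which abscisic acid arrests germination, had 132, 139 and 127 TPM in *h3.3ko*, against 48.2, 44.5 and 46.0 TPM in Col. ABI3, a B3 factor that binds the RY element, had 177, 178 and 146 TPM in *h3.3ko* and 106, 121 and 128 TPM in Col, and its log2 fold change of 0.50 did not pass the threshold. ABI4, an AP2 factor, was the one called lower, with 56.3, 57.1 and 55.1 TPM in *h3.3ko*, against 178, 167 and 178 TPM in Col. DOG1, the dormancy gene, was low in both genotypes, with 5.17, 3.95 and 3.78 TPM in *h3.3ko* and 0, 0.0581 and 0.113 TPM in Col. FUS3 was lower still, with 1.19, 1.26 and 1.23 TPM in *h3.3ko* and 0.201, 0.0509 and 0 TPM in Col. LEC1 and LEC2 did not reach the level needed to be tested.

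Polycomb complexes and the VAL proteins silence maturation genes during germination. Of 15 tested genes of these repressors, 2 were called higher in *h3.3ko* and 1 lower, with a median log2 fold change of -0.21. Over all genes, 10.1% were called higher and 31.2% lower. After median-of-ratios scaling or quantile normalization 4 were called higher and none lower. These scalings called 2872 and 3267 of all 17874 genes higher, and 3822 and 3369 lower. RING1B, a subunit of Polycomb complex PRC1, had 31.5, 34.1 and 30.5 TPM in *h3.3ko*, against 13.1, 12.8 and 13.3 TPM in Col. CLF, a histone methyltransferase subunit of PRC2, had 5.52, 6.36 and 5.35 TPM in *h3.3ko*, against 15.7, 17.4 and 16.9 TPM in Col, a log2 fold change of -1.39 that fell short of the threshold at -0.98 after median-of-ratios scaling. HSI2, which is VAL1, differed by 0.13 on the log2 scale and was not called.

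Genes for turning stored oil into sugar differed little. Of 18 tested genes for beta-oxidation, the glyoxylate cycle and gluconeogenesis, none was called higher and 3 lower, beside 10.1% and 31.2% of all genes. The median log2 fold change was -0.32 in this list, near the -0.45 of all genes. Their summed share was 2.04, 2.26 and 1.98% of all TPM in *h3.3ko* and 1.82, 1.86 and 2.04% in Col, and the libraries of the genotypes overlapped (2-sided exact permutation p 0.2). ICL, isocitrate lyase of the glyoxylate cycle, had 11143, 12602 and 10829 TPM in *h3.3ko* and 9162, 9269 and 10500.1 TPM in Col, a log2 fold change of 0.26 that turned negative at -1.64 after quantile normalization. MLS, malate synthase, had 3820.3, 4062 and 3589 TPM in *h3.3ko* and 2674, 2711 and 2787 TPM in Col and was not called. PMDH2, a peroxisomal malate dehydrogenase, was the clearest exception, with 11.7, 10.1 and 10.8 TPM in *h3.3ko* and 46.0, 43.2 and 42.9 TPM in Col. The other genes called lower, ACX3 and CSY2, lost their calls under median-of-ratios scaling and quantile normalization.

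Photosynthesis genes were among the lowest in *h3.3ko*. All 25 tested genes for photosystem subunits and the small subunit of Rubisco (RBCS) were called lower, with a median log2 fold change of -3.42. Of these, 18 passed the filter in both genotypes, with a median of -3.05, and 7 through Col alone. Their summed share was 0.0815% of all TPM in *h3.3ko* and 0.586% in Col. RBCS1A had 518, 535 and 666 TPM in *h3.3ko*, against 2845, 2572 and 2534 TPM in Col. RBCS2B had 8.54, 1.38 and 3.13 TPM in *h3.3ko*, against 449, 410.2 and 337 TPM in Col, so the Rubisco genes of one family differed widely in the size of their deficit. PSBY, a photosystem II protein gene, had 3.09, 1.58 and 2.66 TPM in *h3.3ko*, against 250, 262 and 253 TPM in Col.

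Of the 18 light-harvesting protein genes, 15 were called lower and none higher, with a median log2 fold change of -4.49. Through Col alone 5 passed the filter, and 10 of the 13 others were called lower. LHB1B2 (chromosome 2, 14522524 to 14523568, 1 exon), an antenna protein gene of photosystem II, had 7.12, 1.33 and 1.84 TPM in *h3.3ko*, against 769, 739.6 and 939 TPM in Col. It changed by -7.75 on the log2 scale (SE 0.35, limma adjusted p 2.40e-09), and by -8.30 without *h3.3ko* replicate 1. LHCB3 had 1.87, 0.535 and 0.216 TPM in *h3.3ko*, against 167, 161 and 199.9 TPM in Col. CAB1 had 13.9, 14 and 15.6 TPM in *h3.3ko*, against 353, 304 and 386 TPM in Col, whereas its near-copy CAB3 had 23.2, 24.4 and 21.3 TPM in *h3.3ko* and 49.8, 41.2 and 41.0 TPM in Col and was not called. LHCB4.1 had 78.9, 86.6 and 72.4 TPM in *h3.3ko* and 97.2, 94.7 and 103 TPM in Col, and its log2 fold change of -0.31 turned positive at 0.14 after median-of-ratios scaling. Light-harvesting promoters held no RY core, and 6 of 18 held the I-box GATAAG of light-regulated genes. The 110 bases before LHB1B2 (chr2:14523569-14523678, minus strand) are printed as a contrast with the seed promoters, with a TAACAAA match as the one stretch in capitals.
LHB1B2: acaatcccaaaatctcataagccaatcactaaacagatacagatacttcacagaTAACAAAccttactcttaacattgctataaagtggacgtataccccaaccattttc

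Genes for chlorophyll synthesis followed the same direction, with 8 of 9 called lower and none higher, and 6 of the 7 that passed the filter in both genotypes. PORB, a light-dependent protochlorophyllide reductase gene, had 1.38, 1.24 and 0.908 TPM in *h3.3ko*, against 149, 135 and 123 TPM in Col. GUN5, a magnesium chelatase subunit gene, had 0.491, 0.419 and 0.277 TPM in *h3.3ko*, against 65.5, 62.4 and 67.3 TPM in Col. CH1, which makes chlorophyll b, was the member not called, with 27.2, 26.4 and 27.1 TPM in *h3.3ko* and 27.2, 27.1 and 25.9 TPM in Col.

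Transcripts of the 2 organelle genomes moved in opposite directions. Chloroplast genome transcripts made up 0.564, 0.601 and 0.498% of all TPM in *h3.3ko*, against 1.89, 1.47 and 1.34% in Col. In TPM, 41 of 74 tested chloroplast genes were called lower and none higher, beside 31.2% and 10.1% of all genes. After median-of-ratios scaling 25 of the 74 were lower, beside 3822 of all 17874 genes. Mitochondrial genome transcripts made up 0.365, 0.405 and 0.355% of all TPM in *h3.3ko*, against 0.0312, 0.0272 and 0.0282% in Col, a 13.0-fold difference, and 71 of 74 tested mitochondrial genes were called higher and none lower. Of the 74, 45 passed the filter through *h3.3ko* alone, and 27 of the 29 others were called higher. Among the chloroplast genes, 4 passed through Col alone, and 39 of the 70 others were called lower. The exact permutation p was 0.1 for both shares. ATMG01370 had 877, 882 and 839 TPM in *h3.3ko*, against 11.4, 13.0 and 15.5 TPM in Col. The chloroplast gene ATCG00790 had 1067, 1071 and 850.3 TPM in *h3.3ko*, against 4178, 2774 and 2372 TPM in Col. How organelle RNA passed into the libraries is not stated in the sources used here.

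Cell wall and growth genes were lower in *h3.3ko* as a large group. Alpha-expansins loosen walls, and 9 of 10 tested members were called lower and none higher, with a median log2 fold change of -2.65. Of the 8 that passed the filter in both genotypes 7 were called lower. EXPA2, the most abundant, had 204, 224 and 244 TPM in *h3.3ko*, against 1393, 1445 and 1784 TPM in Col. EXPA9 had 12.4, 12.6 and 13.8 TPM in *h3.3ko*, against 424, 417 and 450.2 TPM in Col. Among 17 tested genes described as xyloglucan endotransglucosylases (XTH), enzymes that cut and rejoin wall xyloglucan, 13 were called lower and 2 higher. XTH25 was one of those called higher, with 74.0, 71.9 and 77.5 TPM in *h3.3ko*, against 1.01, 1.10 and 1.71 TPM in Col. Of 25 class III peroxidases, enzymes of wall cross-linking and peroxide use, 21 were called lower and 1 higher, but 14 passed the filter through Col alone, and 8 of the 10 that passed in both genotypes were called lower. Of 35 pectin methylesterase inhibitor genes, 24 were called lower and 5 higher, and of the 18 that passed in both genotypes 10 were lower and 3 higher. Of the 13 such XTH genes 9 were lower and 2 higher.

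Aquaporins and tubulins were mostly lower too. In the tonoplast family, GAMMA-TIP had 2.68, 0 and 0.0763 TPM in *h3.3ko*, against 219, 225 and 206 TPM in Col, and TIP2 (AT3G26520) had 2.44, 0 and 0 TPM in *h3.3ko*, against 135, 141 and 121 TPM in Col. Their log2 fold changes were -7.10 and -6.46, and -7.71 and -7.06 without *h3.3ko* replicate 1. The family was divided, since 4 of its 6 tested members were called lower, 2 of which passed the filter through Col alone, and the seed members TIP3;1 and BETA-TIP were called higher. Of 11 plasma membrane aquaporins, 8 were called lower and none higher, and 7 of the 10 that passed the filter in both genotypes were lower. PIP2A had 12.1, 8.59 and 9.55 TPM in *h3.3ko*, against 256, 254 and 235 TPM in Col. Of 15 tubulin genes, 12 were called lower and none higher. TUB5 had 3.47, 3.55 and 4.16 TPM in *h3.3ko*, against 113, 127 and 118 TPM in Col. TUA6, the most abundant tubulin, had 354, 356 and 356 TPM in *h3.3ko*, against 1287, 1229.8 and 1224 TPM in Col.

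Epidermis and cuticle genes gave 13 lower and 1 higher call among 17, and 12 lower and 1 higher among the 16 that passed the filter in both genotypes. CER1, which makes alkanes of the cuticular wax, had 1.64, 0.0257 and 0.122 TPM in *h3.3ko*, against 202, 216 and 228 TPM in Col. ATML1, the homeodomain factor of the outer cell layer, had 10.4, 12.8 and 10.3 TPM in *h3.3ko*, against 44.7, 51.0 and 54.6 TPM in Col. The lipid transfer protein gene LTP2 was the one called higher, with 6219, 5685 and 6399 TPM in *h3.3ko*, against 1596, 1599.5 and 1655 TPM in Col. Most root hair markers were too low to test. Of 9, 2 passed the filter, both through Col alone, so their direction was fixed by the filter. Of these, RHD6, the factor that starts root hair growth, had 0.639, 0.595 and 0.731 TPM in *h3.3ko*, against 17.7, 16.1 and 21.2 TPM in Col. Endosperm genes were mixed. MAN7, an endo-mannanase gene linked to the softening of the endosperm, had 86.1, 99.3 and 90.6 TPM in *h3.3ko* and 78.5, 82.8 and 102 TPM in Col, with overlapping libraries. AT2G27380, an extensin-like gene of the endosperm, had 12.7, 10.2 and 6.68 TPM in *h3.3ko*, against 229, 415 and 490.0 TPM in Col. Of 6 tested endosperm genes 3 were called lower, and 2 after quantile normalization. Of 6 meristem markers 3 were called lower, and 1 after quantile normalization. Through Col alone 1 meristem marker passed the filter, and 2 of the 5 others were lower. Over all genes, 31.2% were called lower in TPM, and 3369 of 17874 after quantile normalization. With so few genes, these counts are not read as a result about either tissue. SHR, a root patterning factor, was at 4.19, 3.16 and 3.17 TPM in *h3.3ko*, against 18.2, 19.3 and 19.2 TPM in Col.

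Genes of DNA replication were lower in *h3.3ko*. Of 12 S-phase genes, 11 were called lower and none higher, with a median log2 fold change of -2.02. Through Col alone 1 passed the filter, and 10 of the 11 others were called lower. PCNA1, the sliding clamp of DNA polymerase, had 13.9, 13.9 and 13.6 TPM in *h3.3ko*, against 147, 147 and 142 TPM in Col. TSO2, a ribonucleotide reductase subunit gene, had 61.2, 65.1 and 59.8 TPM in *h3.3ko*, against 308, 308 and 298 TPM in Col. MCM2, of the replicative helicase, had 11.3, 10.5 and 11 TPM in *h3.3ko*, against 43.2, 45.5 and 47.4 TPM in Col. Its promoter holds the E2F site TTTCCCGC, which 4 of 12 S-phase promoters and 0.798% of all nuclear promoters held, and the 110 bases before its start (chr1:16970104-16970213, plus strand) carry that site in capitals.
MCM2: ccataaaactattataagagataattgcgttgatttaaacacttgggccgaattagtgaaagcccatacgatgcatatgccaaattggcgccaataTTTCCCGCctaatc
Mitotic genes were low in both genotypes, and 10 of the 11 passed the filter through Col alone, so a count of lower calls says nothing about them. SYP111, the cytokinesis syntaxin KNOLLE, had 0.142, 0.218 and 0.137 TPM in *h3.3ko*, against 13.0, 14.1 and 15.1 TPM in Col. The 9 tested D-type cyclins, which lead into the cell cycle, gave 5 lower calls and none higher, and 3 lower after quantile normalization. Over all genes, 31.2% were called lower in TPM, and 3369 of 17874 after quantile normalization.

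The H3.1 genes, whose histone is deposited mainly during replication, were lower in sum in TPM. Their summed level was 902 ± 75.9 TPM in *h3.3ko* and 1727 ± 59.1 TPM in Col (SD, n = 3 each). In TPM, 3 of 5 genes were called lower, beside 31.2% of all genes. AT5G65360 had 190.4, 179 and 189.6 TPM in *h3.3ko*, against 621, 664 and 634 TPM in Col. AT5G10400 and AT3G27360 had log2 fold changes of 0.18 and 0.71 and were not called in TPM, and AT3G27360 passed the threshold as higher under median-of-ratios scaling and quantile normalization. Under these scalings 1 of the 5 genes was called lower and 1 higher, so a direction for the H3.1 genes as a family depended on scaling. The same scalings called 3822 and 3369 of all 17874 genes lower, and 2872 and 3267 higher.

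Gibberellin is needed for germination, and its synthesis genes were split. GA3OX2, which makes active gibberellin, had 1.89, 0.740 and 1.02 TPM in *h3.3ko*, against 118, 119 and 105 TPM in Col, a log2 fold change of -5.73. GA3OX1 had 0.697, 0.548 and 0.363 TPM in *h3.3ko*, against 30.1, 29.2 and 31.4 TPM in Col. GA20OX3, which acts one step earlier, went the other way, with 32.0, 24.7 and 24.5 TPM in *h3.3ko*, against 3.22, 2.85 and 3.31 TPM in Col. In all, 2 of 10 genes of gibberellin synthesis and catabolism were called higher and 4 lower, beside 10.1% and 31.2% of all genes. GA3OX1 passed the filter through Col alone, and of the 9 others 2 were higher and 3 lower. In signalling, 2 of 12 genes were called higher and 6 lower, and 3 and 4 after median-of-ratios scaling or quantile normalization. These scalings called 2872 and 3267 of all 17874 genes higher, and 3822 and 3369 lower. Of the 11 signalling genes that passed the filter in both genotypes, 2 were higher and 5 lower in TPM. The receptor gene GID1A had 62.9, 67.8 and 61.3 TPM in *h3.3ko*, against 14.7, 14.6 and 12.4 TPM in Col. The gibberellin-induced peptide gene GASA4 had 10.9, 3.03 and 4.23 TPM in *h3.3ko*, against 608, 680.4 and 645 TPM in Col. RGL2, the DELLA repressor of germination, had 289, 290.0 and 296 TPM in *h3.3ko* and 162, 157 and 173 TPM in Col, with a log2 fold change of 0.83 that did not pass the fold threshold.

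Genes of abscisic acid synthesis and catabolism gave 2 higher and 4 lower calls among 8, and 3 of each after median-of-ratios scaling or quantile normalization. Over all genes, 10.1% were higher and 31.2% lower in TPM. The 2 scalings called 2872 and 3267 of all 17874 genes higher, and 3822 and 3369 lower. CYP707A2 passed the filter through Col alone, and of the 7 others 2 were higher and 3 lower in TPM. The CYP707A genes, which break abscisic acid down, were lower, and CYP707A2 had 0.749, 0.591 and 0.558 TPM in *h3.3ko*, against 10.2, 11.8 and 9.53 TPM in Col. NCED9, a seed gene of abscisic acid synthesis, had 3.96, 4.05 and 3.27 TPM in *h3.3ko*, against 0.940, 1.29 and 0.980 TPM in Col, whereas ABA2, of a later step, was called lower at -1.33. Clade A protein phosphatases 2C (PP2C) hold abscisic acid signalling in check and are themselves induced by the hormone. They gave 5 higher calls among 9 and none lower. Of these genes, 1 passed the filter through *h3.3ko* alone, and 4 of the 8 others were called higher. AHG1 had 82.3, 95.2 and 75.1 TPM in *h3.3ko*, against 11.7, 9.42 and 11.1 TPM in Col. HAI2 had 33.0, 32.2 and 30.5 TPM in *h3.3ko*, against 2.19, 2.21 and 2.55 TPM in Col.

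Of 11 tested clock genes, 3 were called higher and 2 lower, and 6 were not called, beside 10.1% higher and 31.2% lower over all genes. Of the 10 that passed the filter in both genotypes, 2 were called higher and 2 lower. The genes called lower were CCA1 and LHY, factors that peak at dawn, with LHY at 37.0, 37.3 and 33.1 TPM in *h3.3ko*, against 157, 149 and 164 TPM in Col. TOC1, an evening gene, had 37.1, 40.9 and 34.0 TPM in *h3.3ko*, against 15.4, 14.7 and 15.2 TPM in Col. PRR5 had 9.93, 10 and 9.98 TPM in *h3.3ko*, against 0.512, 0.570 and 0.151 TPM in Col. It passed the filter through *h3.3ko* alone, so its direction was fixed by it. Of 8 light signalling genes, 2 were called higher and 1 lower, and the lower call was lost after median-of-ratios scaling. PIL5, the phytochrome-interacting factor that represses germination in the dark, had 92.3, 82.0 and 86.7 TPM in *h3.3ko*, against 28.9, 31.5 and 29.8 TPM in Col. The time of day of each collection was not used here.

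Ribosomal protein transcripts held 9.85 ± 0.714% of all TPM in *h3.3ko* and 17.6 ± 0.719% in Col (SD, n = 3 each). Of 309 genes, 126 were called lower and 9 higher in TPM, beside 31.2% lower and 10.1% higher over all genes. Their median log2 fold change was -0.83, beside -0.45 for all genes. The number called lower was 40 after median-of-ratios scaling and 54 after quantile normalization, and the number called higher was 17 and 18. Over all 17874 genes, 3822 and 3369 were called lower under these scalings, a larger share than in the ribosomal list. The ribosomal medians were -0.37 and -0.53, beside -0.04 and 0.04 for all genes. The most abundant member, emb2386, had 2058, 2029 and 2399.5 TPM in *h3.3ko* and 3535, 3190.5 and 3205 TPM in Col and was not called. A telo-box (AAACCCTA) was held by 111 of 309 ribosomal promoters, 35.9%, beside 6.22% of all nuclear promoters.

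Transcription factor genes, taken from their descriptions, gave 54 higher and 178 lower calls among 522, which is near the shares over all genes (10.1% and 31.2%), and their median log2 fold change of -0.46 lay beside -0.45 for all genes. The split was 95 to 106 after quantile normalization. Of the 522, 83 passed the filter through Col alone and 11 through *h3.3ko* alone, so their direction was fixed by it. Of the 428 others, 44 were called higher and 98 lower, beside 1421 and 4177 of the 15836 such genes in all. The factor with the largest increase was NAC060, with 77.5, 74.7 and 79.1 TPM in *h3.3ko*, against 3.35, 3.01 and 4.03 TPM in Col. NAC019, a stress-related member of the same family, had a log2 fold change of 3.17. HEC1, a bHLH factor that passed the filter through Col alone, had the largest decrease, with 0.910, 0.339 and 0.560 TPM in *h3.3ko*, against 121, 138 and 129.9 TPM in Col. Its relative HEC2 was at -5.72.

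Families that respond to hormones and stress had members at both extremes. Of 42 glutathione S-transferases, which conjugate reactive compounds, 8 were called higher and 17 lower in TPM, and 15 and 16 after quantile normalization. Of the 38 that passed the filter in both genotypes, 7 were higher and 14 lower in TPM. Over all genes, 10.1% were higher and 31.2% lower in TPM, and 3267 and 3369 of 17874 after quantile normalization. GSTF3 had 232, 216 and 190.1 TPM in *h3.3ko*, against 2.06, 1.04 and 1.12 TPM in Col, and GSTU25 had 5.61, 0.779 and 0.644 TPM in *h3.3ko*, against 208, 223 and 216 TPM in Col, a log2 fold change of -6.34, and -6.99 without replicate 1. Of 27 auxin-responsive SAUR genes, 6 were called higher and 16 lower, and of the 17 that passed the filter in both genotypes 5 were higher and 7 lower. AT3G12955 of this family had 238, 252 and 278 TPM in *h3.3ko*, against 15.0, 10.7 and 10.3 TPM in Col.

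**Figure D3:**
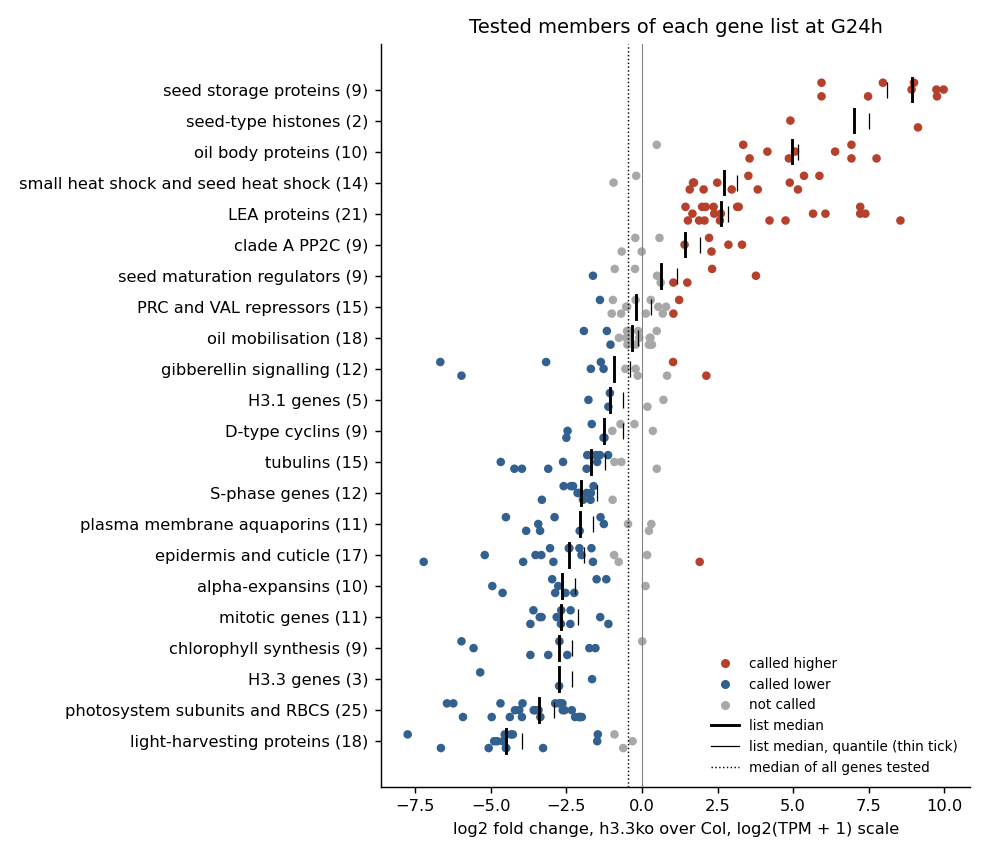
Log2 fold change of *h3.3ko* over Col at G24h (x axis, log2(TPM + 1) scale) for each tested gene of 22 lists (y axis, number tested in brackets), with the list median in TPM as a thick tick and after quantile normalization as a thin tick. Storage genes, with a median of 8.92, and light-harvesting genes, with a median of -4.49, form the ends, and the dotted line marks the median of all genes at -0.45.

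Several of the genes with the largest decreases were without reads in some *h3.3ko* libraries. ELP (chromosome 1, 4089664 to 4090857, 1 exon), an extensin-like protein gene, had 14.1, 0 and 0 TPM in *h3.3ko*, against 1159, 1239 and 1154 TPM in Col. It changed by -8.90 on the log2 scale (SE 0.80, limma adjusted p 8.84e-07), and by -10.21 without *h3.3ko* replicate 1, a value that rests on the pseudocount because both remaining libraries were at 0. AT5G46960 (chromosome 5, 19062146 to 19062814) had 2.82, 0 and 0 TPM in *h3.3ko*, against 359, 407 and 487 TPM in Col, a log2 fold change of -8.05, and -8.70 without replicate 1. The peroxidase gene AT5G64100 had 3.24, 0.128 and 0.301 TPM in *h3.3ko*, against 288, 338 and 387 TPM in Col, a log2 fold change of -7.52, and -8.12 without replicate 1. BGLU21, a beta-glucosidase gene, had 2.83, 0 and 0.0614 TPM in *h3.3ko*, against 237, 293 and 329 TPM in Col, a log2 fold change of -7.48, and -8.11 without replicate 1. In each of these 4 genes the highest of the *h3.3ko* libraries was replicate 1, and no *h3.3ko* library came near Col.

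A further 6 genes, picked after their values were seen, had no read in any *h3.3ko* library and at least 10 TPM in every Col library. With a floor of 3 reads per library they were at least 36.3-fold (AT5G46940) to 252-fold (AT2G43140) lower in *h3.3ko*. AT5G46950, which neighbours AT5G46960, was at 0 in all 3 *h3.3ko* libraries and at 23.5, 28.6 and 29.3 TPM in Col, which makes it at least 56.2-fold lower. OCT3, an organic cation transporter gene, was at least 140.2-fold lower. The reverse pattern, no read in Col and at least 10 TPM in every *h3.3ko* library, was found in 3 genes. PDF1.4, of the plant defensin family, had 169 to 190.4 TPM in *h3.3ko* and was at least 363-fold higher than in Col.

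The difference at G24h was set against the same difference at G12h, 12 h into germination, to see where the later stage stood apart. The interaction is the log2 fold change of *h3.3ko* over Col at G24h minus that at G12h, fitted over 12 libraries. Of 18253 genes, 691 were called higher (3.79%) and 2612 lower (14.3%), 18.1% in all. A total of 1941 genes were lower both in the interaction and at G24h, and 286 were higher in both.

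Light-harvesting and cell cycle genes were among those with a larger deficit at G24h than at G12h. The 18 light-harvesting genes summed to 159 TPM in *h3.3ko* and 2181 TPM in Col at G24h, and to 129.8 TPM in *h3.3ko* and 238 TPM in Col at G12h, and 16 of them had a lower interaction. The 12 S-phase genes, all lower in the interaction, summed to 209 TPM in *h3.3ko* and 900.5 TPM in Col at G24h, and to 361 TPM in *h3.3ko* and 483 TPM in Col at G12h. The H3.1 genes, of which all 5 were lower in the interaction, stood at 902 TPM in *h3.3ko* and 1727 TPM in Col at G24h, and at 1008 TPM in *h3.3ko* and 522 TPM in Col at G12h. Their sum in *h3.3ko* was thus above Col at G12h and below it at G24h. The mitotic genes, 7 of which passed the filter through Col at G24h alone, summed to 4.54 TPM in *h3.3ko* and 93.7 TPM in Col at G24h, and to 4.41 TPM in *h3.3ko* and 10.6 TPM in Col at G12h. LEA genes had 11 of 21 lower and none higher, with 61121 TPM in *h3.3ko* and 8836 TPM in Col at G24h, and 50751 TPM in *h3.3ko* and 4269 TPM in Col at G12h. Their sum was above Col at both times, by a smaller fold at G24h, so this was no deficit. The oil mobilisation genes, by contrast, summed to 20912 TPM in *h3.3ko* and 19046 TPM in Col at G24h, and to 20371 TPM in *h3.3ko* and 29342 TPM in Col at G12h.

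Single genes showed how the difference moved. LHB1B2 was at 7.12, 1.33 and 1.84 TPM in *h3.3ko* and 769, 739.6 and 939 TPM in Col at G24h, and at 0.725, 0.719 and 0.203 TPM in *h3.3ko* and 0.232, 0.340 and 0.118 TPM in Col at G12h, an interaction of -8.07. ELF4, an evening clock gene, was at 144, 146 and 162 TPM in *h3.3ko* and 12.9, 14.2 and 13.8 TPM in Col at G24h, and at 250.5, 277 and 303 TPM in *h3.3ko* and 734, 746 and 731 TPM in Col at G12h. It was thus lower in *h3.3ko* at G12h and higher at G24h, with log2 fold changes of 3.37 at G24h and -1.41 at G12h. GA20OX3 turned in the same way, with log2 fold changes of 2.76 at G24h and -1.10 at G12h. SEOR1, a protein gene of the sieve elements, was at 4.19, 4.82 and 5.14 TPM in *h3.3ko* and 5.30, 4.66 and 5.19 TPM in Col at G24h, and at 1.48, 2.47 and 2.54 TPM in *h3.3ko* and 65.1, 72.5 and 70.5 TPM in Col at G12h, so the genotypes overlapped at the later time only. CDEF1, a cutinase gene, was at 1.08, 0.133 and 0.0419 TPM in *h3.3ko* and 74.5, 108 and 117 TPM in Col at G24h, with a log2 difference of -0.02 at G12h.

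**Figure D4:**
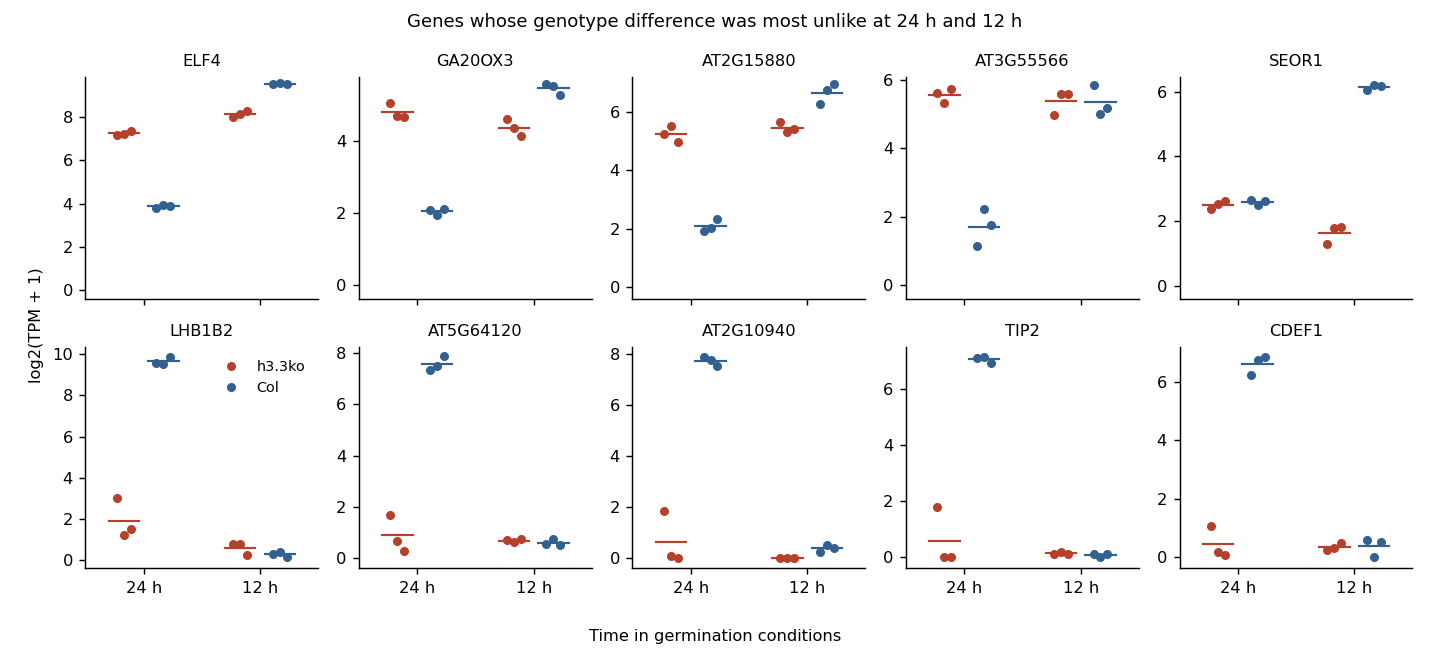
log2(TPM + 1) (y axis) of the 5 genes with the highest and the 5 with the lowest genotype by time interaction, in 3 *h3.3ko* and 3 Col libraries at 24 h and at 12 h (x axis), with points for libraries and lines for means. In the lower panels Col is high at 24 h alone and *h3.3ko* is low at both times. ELF4, GA20OX3 and AT2G15880 have their genotypes in opposite order at the 2 times.

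Across all genes, motif shares differed by direction of change. An RY core was in 12.4% of promoters of genes called higher, 10.1% of those called lower and 6.72% of those tested and not called, beside 9.72% of all 27445 nuclear promoters. In the 76 nuclear genes with a log2 fold change above 5 the share was 56.6%, and in the 116 with one below -5 it was 19%. The G-box was in 16.5% of promoters of genes called higher, 8.36% of those called lower and 7.68% of all. The ABRE was in 12.3% of promoters of genes called higher, 4.35% of those called lower and 4.33% of all. The I-box was in 19.2% of promoters of genes called higher, 14.6% of those called lower and 14.6% of all, and 13 of 25 photosystem and RBCS promoters held it. The evening element AAAATATCT, a target of clock factors, was in 4.76% of promoters of genes called higher, 2.46% of those called lower and 2.82% of all. The gibberellin response motif TAACAAA was about as frequent in each class, in 16.1% of promoters of genes called higher, 18.7% of those called lower and 18.4% of all. The telo-box was less frequent among called genes, at 3.85% in those higher and 4.91% in those lower, than in all promoters. These shares describe the classes and carry no test.

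**Figure D5:**
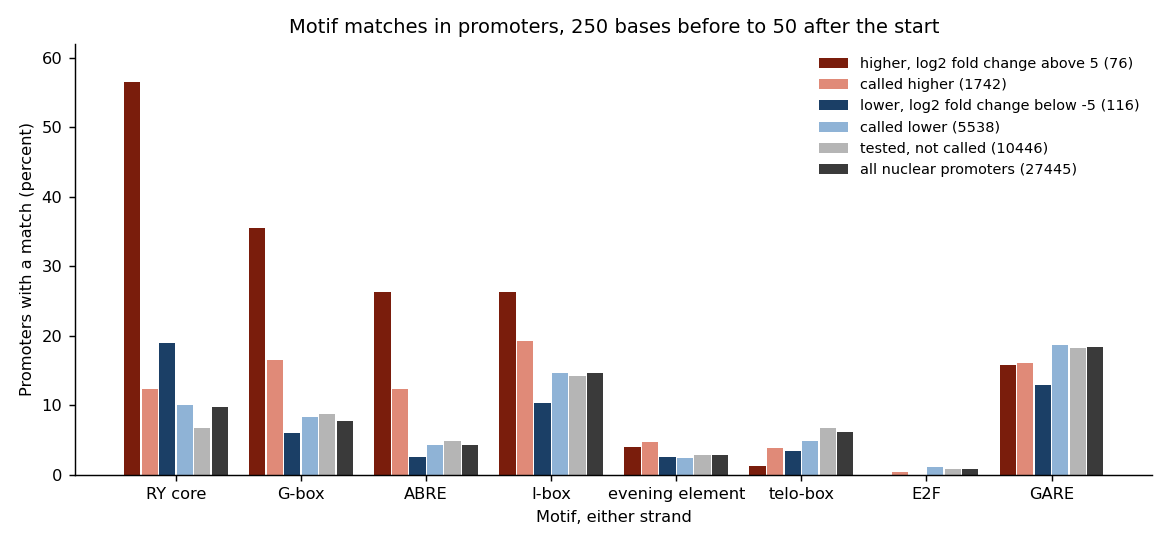
Share of promoters (y axis, percent) that hold each of 8 motifs on either strand (x axis) by class of gene at G24h, with bars for classes and the number of promoters in the legend. The RY core reaches 56.6% among genes with a log2 fold change above 5, beside 9.72% of all nuclear promoters.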

How the data were processed

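RNA-seq libraries of whole seeds were made with a BGISEQ-500 kit, and 3 libraries per genotype and time were taken as biological replicates, as the study states. The authors trimmed reads with fastp (0.20.1), mapped them to TAIR10 with HISAT2 (2.1.10), counted them per gene with HTSeq (0.11.2) and computed the deposited TPM in R, as the methods and the submitters' processing notes give it. They called genes with DESeq2 (1.26.0) on counts that were not used here. Whether the counting used strand is not given in the sources used here.

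Each TPM column of the deposited table sums to 1000000 over 27655 genes. TPM times the RefSeq gene span, introns included, came in whole steps, with 99.96 to 99.979% of values of the 6 libraries within 0.05 of a whole read, so reads were recovered and a TPM here is per genomic span. The test on log2(TPM + 1) was limma-trend (limma 3.58.1, R 4.3.3) for every gene that reached 1 TPM in 3 or more libraries. P-values were adjusted by the Benjamini-Hochberg method over all these genes, and a call needed an adjusted p under 0.05 and a log2 fold change past 1 in either direction. This scale makes the change of low genes look smaller than it is. Library-level measures were compared by 2-sided exact permutation tests. The fits were tested on simulated data. Alternatives were other scalings, pseudocount, filters, all 36 libraries, a replicate block and leaving out each library. Promoters and positions come from RefSeq TAIR10.1, whose nuclear sequence is that of TAIR10, and all 27445 nuclear identifiers matched.

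Named genes were the H3.3 genes, the 10 largest changes in each direction with a mean of at least 20 TPM and no overlap, in each list up to 3 called genes per direction and the most abundant one, up to 5 transcription factors per direction, the 5 largest interactions per direction with a mean of at least 20 TPM, and any storage, light-harvesting or seed-type histone gene. Not every gene so taken is named. Other list members, such as MLS, DOG1, RGL2, GEA6 and MCM2, are named outside this rule, as examples picked without a fixed rule. The gene lists, the motifs and the rule were chosen with earlier results of these data known.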

Additional observations from a re-analysis of the deposited data

Results flagged for a closer look

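The genotype difference changed between G12h and G24h, by the limma interaction term over 12 libraries, in the following genes and lists. ELF4, SEOR1, AT2G15880, GA20OX3 and AT3G55566 had the highest interactions, at 4.79, 4.41, 4.33, 3.85 and 3.80 on the log2 scale. AT2G15880 had 36.5, 45.1 and 30.2 TPM in *h3.3ko* and 2.78, 3.07 and 4.0 TPM in Col at G24h, and 49.7, 39.0 and 41.0 TPM in *h3.3ko* and 75.5, 105 and 121 TPM in Col at G12h. AT3G55566 had 47.6, 39.0 and 52.2 TPM in *h3.3ko* and 1.21, 3.68 and 2.39 TPM in Col at G24h, and 30.6, 46.6 and 47.2 TPM in *h3.3ko* and 56.3, 31.1 and 34.8 TPM in Col at G12h. LHB1B2, AT5G64120, AT2G10940, TIP2 and CDEF1 had the lowest interactions, at -8.07, -6.76, -6.68, -6.52 and -6.17. The G24h fold changes of the last 3 were -7.09, -6.46 and -6.20, and -7.69, -7.06 and -6.51 without *h3.3ko* replicate 1. AT5G64120 had 2.21, 0.612 and 0.231 TPM in *h3.3ko* and 159, 181 and 233 TPM in Col at G24h. AT2G10940 had 2.62, 0.0582 and 0 TPM in *h3.3ko* and 236, 217 and 185 TPM in Col at G24h.

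In some lists of at least 3 tested genes, 50% or more of the members were lower in the interaction, beside 14.3% of all genes. The counts were 5 of 5 H3.1 genes, 12 of 12 S-phase genes, 10 of 11 mitotic genes, 16 of 18 light-harvesting genes, 18 of 25 photosystem and RBCS genes, 11 of 21 LEA genes, 4 of 6 tonoplast aquaporins, 2 of 4 genes for raffinose family sugars, 17 of 26 class III peroxidases and 11 of 17 XTH genes. Of the tested members, 7 mitotic genes, 5 light-harvesting genes, 10 peroxidases, 2 XTH genes, 2 tonoplast aquaporins and 1 photosystem gene passed the filter through Col at G24h alone, so their direction was fixed by it.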

How the results depend on the processing

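All counts of called genes at G24h kept a majority of lower calls under every setting run, and scaling moved them most. Median-of-ratios scaling gave 2872 higher and 3822 lower genes and quantile normalization 3267 higher and 3369 lower, whereas voom on recovered reads gave 2604 and 5197. In the interaction, quantile normalization gave 1434 higher and 1725 lower genes, and a filter on a mean TPM of at least 5, which tests fewer genes, gave 1964 calls with 1434 of them lower. With any library left out, the G24h counts ran from 1780 to 1871 higher and from 5529 to 5645 lower, and the interaction counts from 669 to 716 higher and from 2550 to 2680 lower. As shares of recovered reads, in which long genes weigh more, storage genes held 11.9% in *h3.3ko* and 0.0179% in Col, the chloroplast genome 0.210% in *h3.3ko* and 0.574% in Col, and the mitochondrial genome 0.105% in *h3.3ko* and 0.0132% in Col. After median-of-ratios scaling the summed H3.3 level was 229.8 in *h3.3ko* and 1119 in Col. The sign of the G24h fold change turned in 3 genes that were not called in TPM. These were SEOR1, at 0.30 after median-of-ratios scaling, 0.47 after quantile normalization, 0.12 in voom and 0.14 without storage genes, LHCB4.1, at 0.14 after median-of-ratios scaling and 0.13 after quantile normalization, and ICL, at -1.64 after quantile normalization. The cause was not tested.

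Of 199 genes that the rule took, 181 kept their direction and their side of the threshold under every setting. Leaving out a library changed 8 of 1194 such calls and reversed none. Many of these genes were taken for large changes without overlap in the same libraries. Their stability was thus largely fixed by the choice and says little about other genes. Same-number libraries did not deviate together at G24h (correlations -0.041, -0.014 and -0.123), so the numbers were not taken as pairs. A fit with the replicate block gave 7392 called genes, 1813 higher and 5579 lower, as without it. Each number occurs once per genotype, so the block leaves every fold change as it was, and these equal counts do not test pairing. Depth limits the genes under about 1 TPM, and 3 libraries a group cannot bring an exact permutation test below 0.1.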

Other observations

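Gene structure differed between the classes of genes at G24h, given here as values with no test. The median gene span was 1906 bases with 3 exons in nuclear genes called higher in *h3.3ko*, 2276 bases with 4 exons in those called lower, and 2577 bases with 6 exons in those tested and not called. It was 1255 bases in genes with a log2 fold change above 5 and 1719 bases in those with one below -5. Genes with a single exon made up 19.1% of those called higher, 17% of those called lower and 10.1% of those not called. The number of genes that together held 50% of all TPM was 210, 233 and 241 in the *h3.3ko* libraries, against 659, 691 and 715 in the Col libraries.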
